A study of Mus musculus with 8 samples.

Results

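Genes of cartilage and bone formation, with Sox9 at their head, were examined in mouse embryonic fibroblasts (MEFs) that lacked Lats2. Wild-type MEFs of the same litters were compared with them. Lats2 encodes a kinase of the Hippo pathway. The set holds 9 genes (Sox9, Sox5, Sox6, Runx2, Sp7, Comp, Matn2, Spp1 and Alpl, which the array names Akp2), found by their names among 27745 gene names on the array. They are represented by 20 of its 41174 gene probes. These genes were chosen from log2 ratios of Lats2-/- over Lats2+/+ already measured in these litters, and collagens were left out. The ratios below are therefore a description, and no test is given for the 9 genes.

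RNA was compared between Lats2-/- and Lats2+/+ MEFs of litters 112, 116 and 121, with 1 extract of each genotype per litter, so that there were 6 extracts. Both genotypes were C57BL/6J, received no treatment and grew in DMEM with fetal bovine serum. The embryonic age and the way in which the Lats2 allele was made are not given in the sources used here. Each array carried both extracts of 1 litter in different dyes, with 2 arrays for litters 112 and 116 and 4 arrays for litter 121, always in dye-swapped pairs. A litter is the unit of replication, and no label says that an extract stands for more than 1 culture.

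Sox9 is the SRY-box factor that commits mesenchymal cells to cartilage, and Sox5 and Sox6 act with it on the genes of the cartilage matrix. Runx2 and Sp7 (osterix) are required for osteoblasts. Comp and Matn2 encode matrix proteins, Spp1 encodes osteopontin, a secreted phosphoprotein of bone that fibroblasts and macrophages also make, and Alpl encodes the alkaline phosphatase of mineralising cells.

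In these cells the 9 genes fell into 3 kinds of behaviour. Sox9, Matn2 and Spp1 differed at least 2-fold between littermates of litters 116 and 121 and by less than that in litter 112, in directions that depended on the litter. Runx2 and Comp were measured in every extract and differed by less than 2-fold in each litter, except that Comp passed 2-fold in litter 112 with the processed signals and the deposited value table. Sox5, Sox6, Sp7 and Alpl were not kept, because too few of their extracts were well above background. In litter 121, Sox9 was 13.0-fold lower, Matn2 9.04-fold lower and Spp1 15.1-fold lower in Lats2-/- cells. The Sox9 difference there was larger with a smaller offset and with the processed signals, as given below. In litter 116, by contrast, Spp1 was 11.9-fold higher and Sox9 2.65-fold higher, while Matn2 was 2.52-fold lower, as in litter 121 in direction.

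A probe was kept where 2 or more of the 3 extracts of one genotype rose well above background. By this rule 9 of the 20 probes were kept, 3 for Sox9, 3 for Runx2 and 1 each for Comp, Matn2 and Spp1. A gene is described by its leading probe, the one with the highest mean signal over the 6 extracts. Among the 14791 genes with a kept probe, 30% had 1 sign in all 3 litters, while 0 of the 5 kept genes of the set did. Because the set was picked on the same contrast, nothing is read from that difference.

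Start regions of an effector and of a regulator of bone are shown because, of the 5 kept genes, Spp1 had the widest spread between litters and Runx2 the smallest. Both are the 250 bases before an annotated start, for Spp1 the first of 2, 5′ to 3′, credited to RefSeq in build GRCm38.p6. Capitals mark matches to the RUNX core motif TGTGGT on either strand.
Spp1, chr5:104434861-104435110, plus strand: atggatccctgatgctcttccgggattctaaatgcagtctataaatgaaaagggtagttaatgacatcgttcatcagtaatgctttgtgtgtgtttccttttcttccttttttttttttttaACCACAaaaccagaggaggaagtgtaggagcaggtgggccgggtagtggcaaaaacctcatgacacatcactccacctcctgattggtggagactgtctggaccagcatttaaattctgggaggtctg
Runx2, chr17:44814628-44814877, minus strand: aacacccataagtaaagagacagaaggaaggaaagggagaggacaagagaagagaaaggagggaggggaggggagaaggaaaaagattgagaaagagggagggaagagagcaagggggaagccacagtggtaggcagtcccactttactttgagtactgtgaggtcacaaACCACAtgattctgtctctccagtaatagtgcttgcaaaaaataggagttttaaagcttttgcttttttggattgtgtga
Each window held 1 match to TGTGGT, which occurs on either strand in 14% of the 32851 windows of this length. The window of the second Spp1 start, not shown, held 0. Neither window shown held a match to the SOX core AACAAT (9.42% of all windows) or to the TEAD core GGAATG (12.6%), both also searched on both strands. The table of start regions had entries for 5 of the 9 genes, namely Sox5, Sox6, Runx2, Spp1 and Alpl. A match of letters is a description of the window and no evidence of binding.

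The targeted gene and the arrays bear on what follows. In an array channel, 52.9% to 61.3% of gene probes rose well above background. The upstream Lats2 probe A_52_P425064 was lower in Lats2-/- cells in all 3 litters, at -1.33 in litter 112, -1.05 in litter 116 and -0.56 in litter 121 on the log2 scale. The brightest downstream Lats2 probe, A_52_P315345, gave -0.26, -0.70 and 1.17, so that in litter 121 it ran against the label. The other downstream probes, A_51_P331525 and A_51_P133349, did so too, at 1.12 and 0.80 in that litter. Ctgf and Cyr61, which YAP and TAZ induce, were higher in all 3 litters, with ratios of 1.55, 1.18 and 1.67 for Ctgf and of 1.51, 0.68 and 1.87 for Cyr61. Litters 112 and 116 were on slide 1 and litter 121 on slide 2, so that litter 121 and slide 2 cannot be told apart, although both genotypes of a litter shared each array. Values for Sox9, Matn2 and Spp1 are therefore given with and without litter 121.

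Sox9 was measured by 3 probes on the plus strand of chromosome 11 (mm8). The leading probe, A_52_P577484 (112601784 to 112601843), had log2 signals in Lats2+/+ cells of 10.11 for litter 112, 9.16 for litter 116 and 10.58 for litter 121, and of 10.83, 10.57 and 6.87 in the Lats2-/- littermates. Values of later genes follow the same order of litters. The Lats2-/- extract of litter 121 stood below the other 5 extracts, and elsewhere the genotypes overlapped. The log2 ratios were 0.71, 1.41 and -3.71. They averaged -0.53 ± 2.77 (SD, n = 3 litters), a spread larger than that of 99.5% of genes with a kept probe. Without litter 121 the mean turned to 1.06. Averaged over all 3 Sox9 probes the mean was -0.27, and the dimmest probe alone gave 0.07.

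The litter differences of Sox9 were larger than the spot and dye error of the arrays, which does not cover variation between cultures of 1 litter. On single arrays its leading probe gave 0.62 and 0.81 for litter 112, 1.33 and 1.48 for litter 116, and -4.01, -3.52, -3.90 and -3.40 for litter 121. All arrays of a litter thus had 1 sign, and the dye orientations in litter 121 differed by 0.49 in their means. A second probe, A_52_P214630 (112603585 to 112603644), is printed on each array in 10 repeat spots. It gave 0.71, 1.23 and -3.01, with an SD of the spots on 1 array between 0.03 and 0.18. The third probe, A_51_P451606 (112599086 to 112599938), was dim, with log2 signals of 6.20 to 6.80, and gave 0.25, 0.23 and -0.26. The direction of the litter means was the same in all 3 probes, and the dim probe gave the smallest size. Its arrays in litter 121 ranged from -0.39 to 0.06, so that 1 of the 4 had the other sign.

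The size of the Sox9 difference in litter 121, where the Lats2-/- signal was dim, depended on the processing. The ratio of -3.71 became -4.20 with a smaller offset and -4.83 with the processed signals of the scanner software. The processed signals differ in dye normalization as well as in background treatment, and the parts of these were not separated. In litters 112 and 116 these settings gave 0.69 to 0.73 and 1.47 to 1.49.

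Sox5 and Sox6, the partners of Sox9 in cartilage, were at or near background. None of the 3 Sox5 probes on chromosome 6 was well above background in any extract, on the majority rule for its arrays, and their litter ratios of -0.20 to 0.12 have no order. Of the 5 Sox6 probes on chromosome 7, only A_52_P282171 (115266015 to 115266074) was above background in an extract, on 4 of 4 arrays of Lats2-/- in litter 121. Its log2 signal was 6.96 there and between 6.01 and 6.11 in the other 5 extracts. Sox6 was thus at least 1.86-fold higher in Lats2-/- cells of that litter, in which Sox9 was 13.0-fold lower. The other 4 Sox6 probes showed no such signal.

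Runx2 was the steadiest of the kept genes. Its leading probe A_51_P230942 (chromosome 17, minus strand, 44067120 to 44067179) had log2 signals of 8.88, 9.20 and 8.93 in Lats2+/+ cells and of 9.06, 9.29 and 8.84 in Lats2-/- cells. The genotypes overlapped, and litter 116 was highest in both. The ratios were 0.19, 0.08 and -0.10. They averaged 0.06 ± 0.14 (SD, n = 3 litters), a smaller spread than that of most genes, since 24.5% of genes with a kept probe were below it. The dye orientations of 1 litter differed by 0.18 to 0.37, close to the litter ratio in litter 112 and above it in the others.

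Further probes of Runx2 gave the same picture. A_52_P415319 (44067258 to 44067317) had ratios of 0.14, 0.08 and -0.08, and A_52_P460545 (44071031 to 44071090) had 0.00, 0.12 and -0.04. The probe A_52_P55876, farther upstream (44277234 to 44277293), was not kept. Sp7, which acts after Runx2 in osteoblasts, had 1 probe on chromosome 15 (102185295 to 102185354) that was above background in none of the extracts, with log2 signals of 6.09 to 6.33.

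Between littermates, Comp differed little and Matn2 widely. Comp, a protein that joins collagen fibres, was measured near background (probe A_51_P409010, chromosome 8, 73310782 to 73310915), with log2 signals of 7.12, 6.52 and 6.83 in Lats2+/+ cells and of 6.66, 6.63 and 6.94 in Lats2-/- cells. The genotypes overlapped, and only litter 112 was lower in Lats2-/- cells. The ratios were -0.46, 0.11 and 0.11, which averaged -0.08 ± 0.33 (SD, n = 3 litters). With the processed signals and with the value table, the ratio in litter 112 was -1.25.

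Matn2 encodes matrilin-2, an adaptor of extracellular matrix networks. Its probe A_51_P484111 (chromosome 15, 34380568 to 34380627) had log2 signals of 11.55, 13.73 and 11.81 in Lats2+/+ cells and of 12.33, 12.39 and 8.63 in Lats2-/- cells. Wild-type cells of litter 116 were the brightest and Lats2-/- cells of litter 121 the dimmest, with the other extracts between them. The ratios were 0.77, -1.34 and -3.18. They averaged -1.25 ± 1.98 (SD, n = 3 litters), and -0.28 without litter 121. Sox9 and Matn2 had 1 direction in litters 112 and 121 and opposite directions in litter 116.

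Spp1 had the widest range of the set. Its probe A_51_P358765 (chromosome 5, 104681071 to 104681130) had log2 signals of 11.64, 12.19 and 13.07 in Lats2+/+ cells and of 11.44, 15.77 and 9.15 in Lats2-/- cells. The highest and the lowest extract were both Lats2-/-, 6.61 apart on the log2 scale, whereas the wild-type extracts spanned 1.44. The ratios were -0.20, 3.57 and -3.92. They averaged -0.18 ± 3.74 (SD, n = 3 litters), and 99.9% of genes with a kept probe had a smaller spread. Without litter 121 the mean was 1.69, and without litter 116 it was -2.06.

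As for Sox9, the arrays of 1 litter gave Spp1 closely similar values. They were -0.22 and -0.17 for litter 112, 3.67 and 3.47 for litter 116, and between -3.96 and -3.90 for litter 121. The 10 repeat spots on an array had an SD of 0.02 to 0.06. Alpl (A_51_P494125, chromosome 4, 137013819 to 137013878), the second gene of mineralisation in the set, was above background in none of the extracts, with log2 signals of 6.07 to 6.14 and ratios of 0.02 to 0.05 that have no order.

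**Figure D1:**
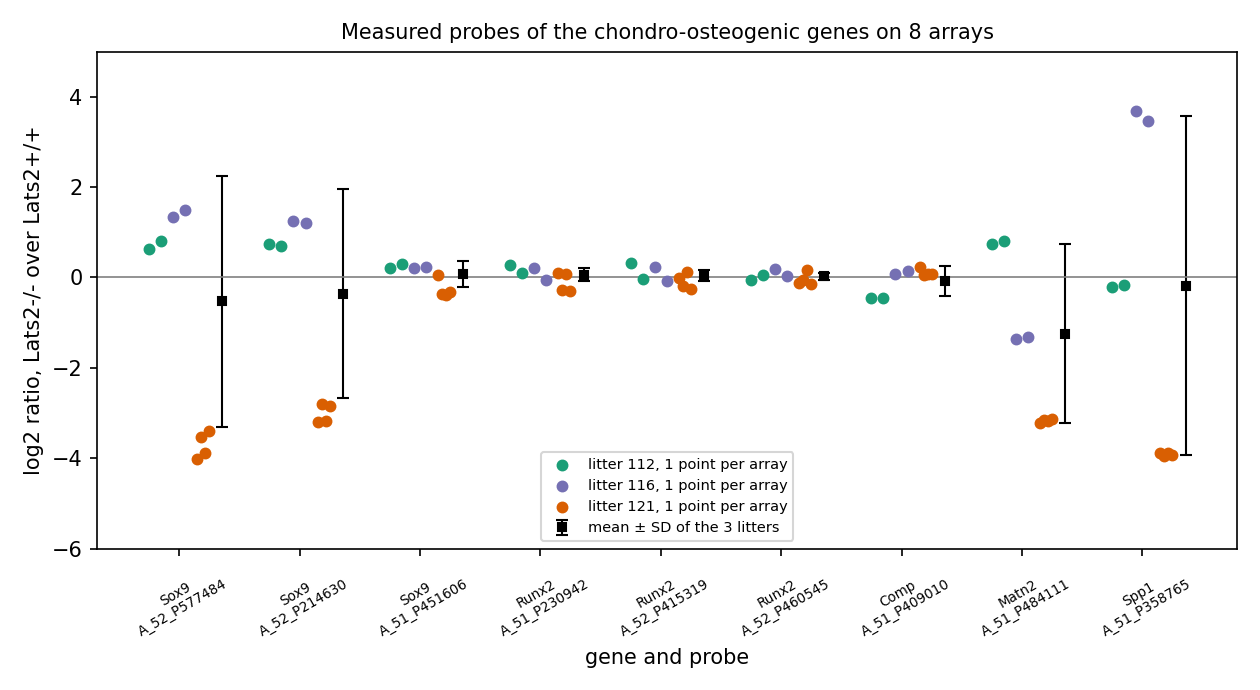
Log2 ratio of Lats2-/- over Lats2+/+ for the 9 kept probes on 8 arrays, 1 point per array coloured by litter, with the mean ± SD of the 3 litters in black. Points of 1 litter lie close together, and litter 121 lies below -2.5 for the brighter Sox9 probes, Matn2 and Spp1.

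**Figure D2:**
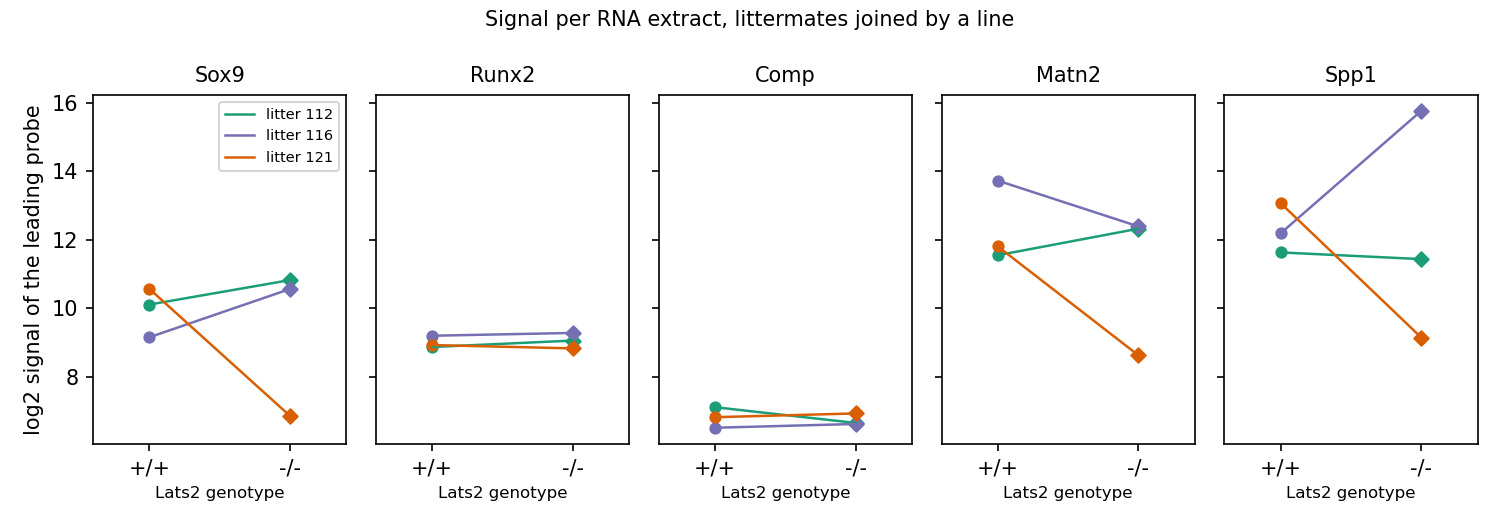
Log2 signal of the leading probe in each RNA extract, with Lats2+/+ (circles) and Lats2-/- (diamonds) littermates joined by a line. The Lats2-/- extract of litter 121 is the lowest of 6 for Sox9, Matn2 and Spp1, and all lines for Runx2 are nearly flat.

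Across all kept probes, 0 of 22642 (0%) passed an adjusted p of 0.05 in limma's moderated test, and the smallest adjusted p was 0.634. At an unadjusted p under 0.05 there were 1549 probes by limma and 1347 by the methods' t-test, which gave 0 after adjustment. A difference of at least 2-fold in 1 litter was found in a few percent of genes. The share of genes higher was 3.15%, 5.55% and 4.04% by litter, and the share lower was 1.46%, 3.68% and 3.23%. Of the 5 kept genes of the set, 0 reached 2-fold in litter 112 (Comp did with the processed signals and the value table), 2 were higher and 1 lower in litter 116, and 3 were lower in litter 121. Sox9 and Spp1 passed 2-fold upward in litter 116 and downward in litter 121, and differences of that size in opposite directions in these litters were found in 1.41% of genes. At least 2-fold in 1 direction in each litter was found in 0.304% of genes and in none of the set.

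The wider programme was examined in 4 lists of other genes, with 104 genes on the array, 65 of them kept. None of the 65 passed the adjusted threshold in limma, with adjusted p from 0.711 upward. At an unadjusted p under 0.05, limma gave 5 of the 65, or 7.69%, against 7.59% of all genes with a kept probe, and the methods' t-test gave 1. With 1 sign in all 3 litters there were 14 genes, or 21.5%, against the 30% given above.

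In the chondrogenic list, 15 of 32 genes were kept, 3 were higher and 2 lower in all 3 litters, and their mean log2 ratios had a median of 0.00, against 0.01 over all genes. In litter 121, where Sox9 was 13.0-fold lower, 0 of these 15 genes differed by 2-fold in either direction. Over all genes, 4.04% were higher and 3.23% lower by that size, so that a count of 0 among 15 is near these shares. Many of the 15 had Lats2+/+ signals near background in that litter, among them Barx2 (6.54), Gdf5 (6.56) and Cilp2 (6.31). A 2-fold fall could not be measured for such genes, so that no conclusion is drawn from the count. Of the genes not kept, Matn3, a cartilage matrix protein chosen after its values were seen, was above background only in Lats2-/- cells of litter 121, on 4 of 4 arrays, and was at least 2.22-fold higher there. Wwp2, a ubiquitin ligase, had ratios of -0.15, -0.90 and -0.00, and its 5 kept probes averaged from -0.93 to -0.04 over the litters. Fgfr3, a receptor that restrains chondrocyte growth, had -0.18, -0.38 and -0.01. Pth1r (Pthr1 in the files), the receptor of parathyroid hormone and its related peptide, had 0.70, 0.14 and 0.19. Chad, which encodes the cartilage protein chondroadherin, had 0.04, 0.10 and 0.02. Aggrecan (Acan), a direct target of Sox9 in cartilage, was chosen after its values were seen, and had ratios of -0.01, -0.02 and 0.01. The log2 signals were 6.55 to 6.82 for Acan and 6.39 to 6.57 for Chad, near background, where a difference would be measured as smaller than it is.

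In the osteogenic list, 27 of 35 genes were kept, 3 were higher and 2 lower in all 3 litters, and the median of the means was -0.00. Postn, a matrix protein of periosteum and fibroblasts, was higher by 0.80, 2.55 and 0.67 (mean 1.34 ± 1.05, SD, n = 3 litters, limma adjusted p = 0.711). Ank, a pyrophosphate transporter that limits mineral, had -0.12, -1.48 and -1.73 (mean -1.11 ± 0.87, SD, n = 3 litters, limma adjusted p = 0.711). Lrp5, a Wnt coreceptor, had -0.90, -0.10 and -0.56.

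Within litter 121 the osteogenic list was spread widely in both directions. Of 27 genes, 8 (29.6%) were at least 2-fold lower and 6 (22.2%) at least 2-fold higher. Over all genes in that litter, 3.23% were lower and 4.04% higher by that size. The list was chosen with earlier results of these data known, so that nothing is read from that difference. The 8 lower genes, chosen after their values were seen, were Ank, Cdh11, Enpp1, Mgp, Msx2, Phex, Twist1 and Twist2. Enpp1, which makes the mineral inhibitor pyrophosphate, was 7.48-fold lower, and Mgp, an inhibitor of calcification, was 31.7-fold lower. Twist1, a factor that restrains Runx2, was 6.69-fold lower and its relative Twist2 at least 7.79-fold lower. Mgp had ratios of 3.87, -0.44 and -4.99 and so, like Sox9, changed direction between litters.

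In the tendon list, 9 of 12 genes were kept, 3 were higher and 0 lower in all 3 litters, and the median of the means was 0.74. Egr1, an early-response factor that also acts in tendon, had ratios of 4.39, 2.93 and 0.81 (mean 2.71 ± 1.80, SD, n = 3 litters, limma adjusted p = 0.711). Fmod, a collagen-binding proteoglycan, had 0.19, 0.50 and 2.82, and Mustn1, a small nuclear protein of the musculoskeletal system, had 0.67, 0.23 and 1.32. Scleraxis (Scx), the defining factor of tendon, was chosen after its values were seen, and had -1.03, -4.90 and 2.95, the reverse of Sox9 in each litter.

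Among relatives of the Sox, Runx and Sp factors, 15 of 26 genes were kept, 1 was higher and 1 lower in all 3 litters, and the median of the means was 0.01. Runx3 had ratios of -1.38, -1.48 and -0.35 (mean -1.07 ± 0.63, SD, n = 3 litters, limma adjusted p = 0.711). This leading probe was above background on 4 of the 8 arrays in Lats2-/- cells, so that its size is not exact. The 2 kept Runx3 probes averaged -1.07 and -0.23. Sp4 had 0.13, 0.18 and 0.78.

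**Figure D3:**
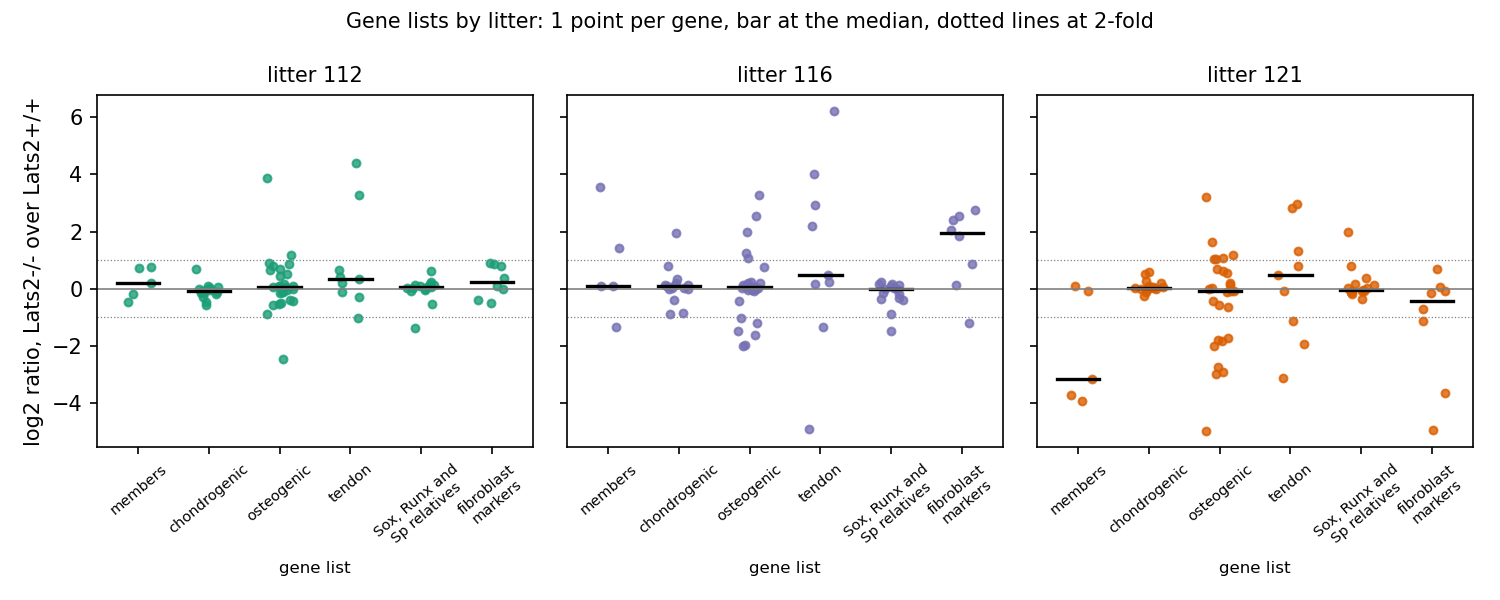
Log2 ratio of Lats2-/- over Lats2+/+ in each litter for the 5 kept genes of the set (members), the other lists and fibroblast markers, 1 point per gene with a bar at the median. The kept chondrogenic genes stay within 2-fold in litter 121, many of them near background, where a 2-fold fall could not be measured. The osteogenic and tendon lists spread in both directions.

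Some markers of the cells that a MEF culture can hold differed between littermates as well. All 8 fibroblast markers were kept. In litter 116, 5 of them were at least 2-fold higher and 1 lower in Lats2-/- cells. In litter 121, 3 were lower and 0 higher. Over all genes, 5.55% were higher and 3.68% lower in litter 116, and 4.04% and 3.23% in litter 121. The markers were chosen with earlier results of these data known, so that nothing is read from that difference. Pdgfra, Thy1 and Col1a1, the 3 lower markers, had ratios in litter 121 of -4.96, -3.66 and -1.13. Pdgfra was above background on 2 of the 4 arrays in Lats2-/- cells of that litter, so that its size is not exact. Its 2 kept probes averaged -1.31 and -0.29 over the 3 litters. The other 5 markers did not reach 2-fold there, with -0.72 for Col1a2, -0.14 for Pdgfrb, -0.07 for Vim, 0.07 for Fn1 and 0.67 for Postn. Vim was the marker lower in litter 116, with -1.19, and its 2 kept probes averaged -0.39 and -0.10 over the 3 litters. The mean log2 signal of the list was 13.3 to 15.0 over Lats2-/- extracts and 13.6 to 14.6 over Lats2+/+ extracts, with the lowest value in Lats2-/- cells of litter 121. Fewer cells of a type and less RNA per cell cannot be told apart in such bulk samples. The part of fibroblast markers in the Sox9, Matn2 and Spp1 differences was not tested.

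Macrophages also make Spp1. Of 7 macrophage markers 4 were kept, with Ptprc, Aif1 and Adgre1 (Emr1 in the files) above background on 0 arrays. The mean log2 signal of the list was 6.69 to 7.03 in Lats2-/- and 6.70 to 7.02 in Lats2+/+ extracts. In litter 116, where Spp1 was 11.9-fold higher, it was 6.94 in Lats2-/- and 7.02 in Lats2+/+ cells. The kept markers did not move together. Lyz2 (Lyzs in the files) had ratios of 0.05, 0.95 and 3.40, and Cd14 had -0.60, -1.64 and -0.74. Cd68 had 0.36, -0.32 and -0.16, and Csf1r had 0.04, 0.30 and -0.08. The part of macrophages in the Spp1 differences was not tested. Sox9 is also made in glia and epithelia. Of the neural crest and glial markers 5 of 6 were kept, with list means of 6.40 to 6.58 in all extracts, and of 4 epithelial markers 0 were kept. Cdh1, one of the 4, was above background only in Lats2-/- cells of litter 121 and at least 2.08-fold higher there. Krt8 and Krt18 were above background only in Lats2+/+ cells of litter 116, and at least 1.23-fold and 1.24-fold lower in their Lats2-/- littermates. Of 6 skeletal muscle markers 1 was kept, Actc1, with ratios of -0.41, 3.37 and 0.55, and so highest in litter 116, as Spp1 was. Of 5 endothelial markers 1 was kept, Tek, with ratios of -0.00, 0.02 and 0.16, and Kdr was at least 1.41-fold higher in litter 121. The part of these cell types in the results was not tested.

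The genes whose litter ratios lay nearest to those of Sox9 were Dnm3os, Lrrc15, Gpr124, Hic1 and Edg3, by Euclidean distance over the 3 litter ratios of named, kept probes. Their distances from the leading Sox9 probe were 0.48, 0.48, 0.56, 0.62 and 0.71 on the log2 scale. Dnm3os, a host transcript of microRNAs, had ratios of 0.50, 1.67 and -4.05, and Lrrc15, a membrane protein of fibroblasts, had 0.89 and -3.66 in litters 112 and 121. In litter 116 Lrrc15 was not above background in Lats2+/+ cells and was at least 1.95-fold higher in Lats2-/- cells, so that its distance is not exact. Gpr124 had 0.22, 1.16 and -3.59, Hic1, a transcriptional repressor, had 0.21, 1.58 and -3.39, and Edg3, a receptor of sphingosine-1-phosphate, had 0.46, 2.06 and -3.59. None of the 9 genes of the set was among them. The likeness rests on 3 values per gene, measured on the same arrays, and says nothing of shared control.

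**Figure D4:**
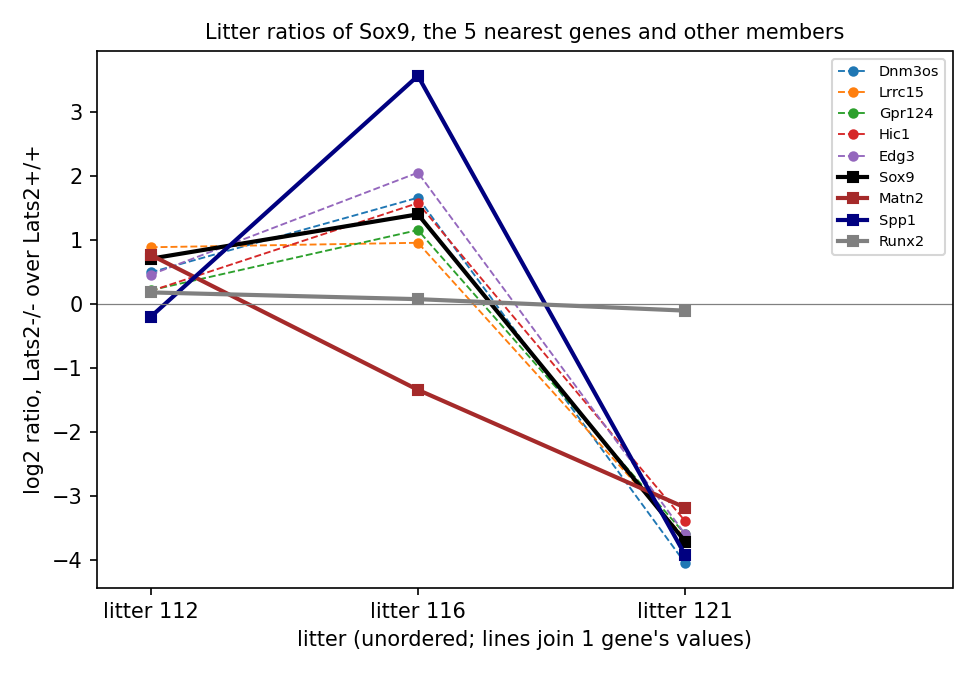
Log2 ratio of Lats2-/- over Lats2+/+ in each litter for Sox9, its 5 nearest genes (dashed), Matn2, Spp1 and Runx2; lines join values of 1 gene, and litters have no order. The nearest genes lie between -4.05 and -3.39 in litter 121, close to Sox9, while Runx2 stays near 0.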

How the data were processed

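MEF RNA was measured on 8 two-colour Agilent arrays. The deposited scanner files give spot intensity on a linear scale, extracted by the authors with Feature Extraction, whose version is 10.5.1.1 in the submitters' processing notes and 10.7.3.1 in the file headers. The deposited log10 ratios, in those files and in the value table, were dye normalized by the authors and served as an alternative; with the sign turned where Lats2-/- was Cy3, table and scanner ratios differed by at most 0.005. Background was corrected by normexp (offset 50) on mean intensities, which were normalized by loess within arrays in limma 3.58.1 (R 4.3.3), turned to log2 Lats2-/- over Lats2+/+, and averaged over repeat spots and then over the arrays of a litter. Control spots and 860 outlier spots were left out. Log2 signals per extract were taken after Aquantile scaling. Levels are not compared between probes. Precision is limited by how few arrays and litters there are, and p-values cover only the spread between these litters. A difference against an extract below background is written as at least N-fold, from a floor set by the lowest signal well above background. Probe positions are in mm8 as the files give them, and exons were not analysed here.

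Kept probes (22642) were tested with limma (3 litter ratios against 0, two-sided, Benjamini-Hochberg at 0.05). The pairing of genotypes comes from the litter numbers in the labels and from the shared arrays. The pipeline was tested on simulated data. The genes, lists and markers were chosen with earlier results of these data known. Every gene of the set is described. Of other genes, those named in each list were the 4 with the largest mean and 1 sign in all litters, and any with an unadjusted p under 0.05. One gene that this rule names is not reported here. Alternatives were another offset, median centring, processed signals, the value table, all kept probes of a gene in place of its leading probe, stricter and no filtering, random blocks for litter or slide, extracts without pairing, and each litter left out.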

Additional observations from a re-analysis of the deposited data

How the results depend on the processing

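The values moved more with the litter left out than with the processing. The mean log2 ratio of Sox9 was -0.53 and ran from -1.50 to 1.06 as each litter was left out, that of Spp1 from -2.06 to 1.69, that of Matn2 from -2.26 to -0.28, that of Comp from -0.17 to 0.11 and that of Runx2 from -0.01 to 0.13. On slide 2 alone, which holds litter 121 only, Sox9 had -3.71 and Runx2 -0.10. Under another offset, median centring, processed signals and the value table, the 5 means kept their sign but moved in size, to -0.88 for Sox9, -0.22 for Comp (from -0.08) and 0.01 for Runx2 (from 0.06) with the processed signals, and the litter ratios of Sox9, Matn2 and Spp1 kept theirs, whereas that of Runx2 in litter 116 turned from 0.08 to -0.03 with median centring. The count of kept genes of the set with 1 sign was 0; it was 1 to 2 with a litter left out, where 2 signs need to match, and 4 with no filter, through genes near background. The count of probes past the adjusted threshold was 0, with 341 when the arrays entered one by one and litter was a random block, and 717 with slide as the block, a fit that also moved the means of Sox9 to -1.32 and of Spp1 from -0.18 to -1.11. The first fit allowed for a correlation of 0.869 within litters and the second for 0.402 within slides, and both took the number of observations from arrays rather than litters. Of the other genes, taken by their leading probes, 2 passed in each of these fits. They were Egr1 and Runx3 with litter as the block, and Mustn1 and Runx3 with slide. With no replicate block, so that the pairing by litter was dropped, 0 probes passed, and all other settings gave 0. Signal over background limits the size of the Sox9 difference in litter 121 and the Sox5, Sox6, Sp7 and Alpl values. These 4 genes' values have no order, except that Sox6 probe A_52_P282171 was higher in Lats2-/- cells of litter 121.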
